A study of Mus musculus with 15 samples.

Results

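The 8 genes described here store, move or bind iron, zinc and copper in the mouse kidney: the ferritin chains Fth1 and Ftl1, the iron importers Tfrc and Slc11a2, the iron exporter Slc40a1, the ferroxidase Cp, and the metallothioneins Mt1 and Mt2. They were taken from the 54532 genes of the deposited table by matching Ensembl identifiers to the gene symbols of GENCODE M21, the mouse annotation on GRCm38. All 8 were found, and all 8 had values above 0 in at least 5 of the 10 libraries in each comparison, the minimum set for testing a gene. One kidney from each of 15 male C57BL/6 mice, 8 weeks old at the start, was sequenced, 5 mice per group. The control group (C) received a normal diet and the gavage vehicle, DMSO in saline. The CKD model group (M) received chow with 0.25% adenine for 4 weeks, which injures the tubules, then standard chow until week 8, and the same vehicle. The AA group followed the adenine schedule and received asiatic acid, a triterpenoid of Centella asiatica, by gavage at 30 mg/kg daily for 8 weeks, so that M and AA share the adenine diet and there is no group that received AA alone. Values are FPKM, the fragments counted on a gene, scaled to the length of its exons in kilobases and to the size of its library.

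Iron enters cells bound to transferrin through the transferrin receptor (Tfrc) and leaves the endosome, or enters from the lumen, through the divalent metal transporter (Slc11a2). Iron that is not used is held in a shell of ferritin heavy (Fth1) and light (Ftl1) chains, or leaves through ferroportin (Slc40a1), the only known iron exporter of mammalian cells, with copper ferroxidases such as ceruloplasmin (Cp) and hephaestin (Heph) oxidizing it on the way out. Cells set several of these genes after transcription: iron regulatory proteins bind a stem-loop, the iron responsive element, where binding at the 5′ end of an mRNA blocks its translation and binding at the 3′ end protects it from decay. Metallothioneins bind zinc and copper, and the zinc sensor Mtf1 switches them on through short metal response elements. In the kidney the tubules take up filtered iron and metallothionein, and macrophages recycle iron.

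The stem-loops are shown because messenger RNA levels, the quantity measured here, are only part of how these genes are set. The untranslated ends of the GENCODE M21 protein-coding transcripts were searched for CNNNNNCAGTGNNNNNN, in which the last 5 bases had to pair with the 5 after the first C at 4 or more positions, G with T included, and the sixth base of the loop could not be G. A match stood in the 5′ untranslated region of Fth1, Ftl1 and Slc40a1, and of 0.695% of 20580 genes. A match stood in the 3′ untranslated region of Slc11a2, with 1 copy, and of Tfrc, with 4, and of 3.17% of 20962 genes. Neither end of Cp, Mt1 or Mt2 held these letters. Capitals mark the 17 matched bases, written as DNA from 5′ to 3′ on the gene's strand.
Fth1, 5′ end, chr19:9982738-9982754, plus strand: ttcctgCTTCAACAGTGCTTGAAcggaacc
Ftl1, 5′ end, chr7:45459785-45459801, minus strand: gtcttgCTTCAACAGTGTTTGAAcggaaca
Slc40a1, 5′ end, chr1:45925471-45925487, minus strand: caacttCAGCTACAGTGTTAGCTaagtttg
Slc11a2, 3′ end, chr15:100395159-100395175, minus strand: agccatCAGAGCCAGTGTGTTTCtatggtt
Tfrc, 3′ end, chr16:32631225-32631241, plus strand: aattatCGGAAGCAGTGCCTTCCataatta
Tfrc, 3′ end, chr16:32631604-32631620, plus strand: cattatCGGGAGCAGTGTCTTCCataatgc
Tfrc, 3′ end, chr16:32631669-32631685, plus strand: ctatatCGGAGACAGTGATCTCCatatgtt
Tfrc, 3′ end, chr16:32631716-32631732, plus strand: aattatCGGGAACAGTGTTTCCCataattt

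The metallothionein promoters are shown because Mt1 and Mt2 are neighbours on chromosome 8 and were measured at very different levels. Of the 8 genes, 6 had RefSeq promoters of GRCm38.p6 in the table used, and the 250 bases before each start were searched on both strands for the metal response element core, TGCACNC or TGCGCNC. Within these windows, Mt2 held 3 copies and Mt1 held 1. One of the windows of Tfrc held 2, which overlap, and those of Fth1, Ftl1 and Cp held 0. Of 32851 promoters, 21.4% held at least 1 copy and 1.26% at least 3. Bases after each listed start were not searched, so the counts do not give all the copies near Mt1 or Mt2. The part of these copies in the levels of Mt1 and Mt2 was not tested. The Mt1 stretch ends at 243 bases, before the first GENCODE start, and capitals mark the cores on either strand.
Mt1, chr8:94178839-94179081, plus strand: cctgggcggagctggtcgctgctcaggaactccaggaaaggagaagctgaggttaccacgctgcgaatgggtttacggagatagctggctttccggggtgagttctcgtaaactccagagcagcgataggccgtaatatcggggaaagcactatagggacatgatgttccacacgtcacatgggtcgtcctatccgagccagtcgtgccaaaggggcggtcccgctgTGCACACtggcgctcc
Mt2, chr8:94172368-94172617, plus strand: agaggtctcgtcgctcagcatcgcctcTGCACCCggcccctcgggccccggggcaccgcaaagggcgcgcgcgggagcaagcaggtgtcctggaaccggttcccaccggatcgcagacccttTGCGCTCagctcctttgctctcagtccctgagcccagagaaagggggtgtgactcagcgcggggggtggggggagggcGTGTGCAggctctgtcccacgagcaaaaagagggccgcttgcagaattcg

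The libraries differed in ways that touch every value below. They held 13647519 to 28884372 fragments on genes, recovered from the steps between FPKM values up to a common factor of 2, and mitochondrial genes took 53.0 to 62.5% of them in C, 64.0 to 86.8% in M and 69.2 to 87.2% in AA. M mice 1 to 3 stood apart, with 10068 to 12222 genes above 0 against 23040 and 25460 in M mice 4 and 5. Xist, the RNA of the inactive X chromosome, was listed at 2.55 and 1.45 FPKM in M mice 2 and 3 and at no more than 0.119 in the other libraries, all labelled male. The Y-linked genes Ddx3y and Eif2s3y were above 0 in all 15 libraries, at 3.26 and 1.98 FPKM in M mouse 2 and 3.87 and 1.49 in M mouse 3. Uty and Kdm5d, also Y-linked, were at 0 in M mouse 2 and at 0.54 and 0.17 FPKM in M mouse 3. Both were low elsewhere, at no more than 1.16 and 0.668 FPKM, and were above 0 in 13 and 14 libraries. Results are therefore also given with M mice 4 and 5 alone, and on TPM (FPKM rescaled to the same total in each library), with and without mitochondrial genes. The tissue label was matched by its markers: all 10 proximal tubule markers were detected in each group, though not in every library. Slc5a2, for one, was at 0 in 2 M and 2 AA libraries. Summed, the 10 were at 405 to 2719 FPKM in C, 16.9 to 118 in M and 46.4 to 86.2 in AA. Slc34a1, Miox and Slc27a2 made up much of the C sum (means of 312, 357 and 334 FPKM). Aqp1 differed less, with means of 14.4, 8.16 and 11.8 FPKM in C, M and AA. The summed level of 10 macrophage markers was 18.2 to 120 FPKM in C, 162 to 471 in M and 114 to 167 in AA, and that of 7 fibroblast markers was 46.5 to 117, 101 to 398 and 265 to 471. Lyz2 made up much of the macrophage sum (means of 13.3, 194 and 86.9 FPKM), and Csf1r went the other way, at 10.3, 4.93 and 3.01. In whole kidneys, fewer cells of a type and less RNA per cell cannot be told apart.

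Across the 8 genes, 1 difference was called: Cp was higher in AA than in C. A call needed an adjusted p no higher than 0.05 together with a change of 1 or more on the log2 scale, up or down. No member was called in M vs. C or in AA vs. M, and every member's groups overlapped in both. Over all genes tested with limma, 1.38% passed in M vs. C, 12.8% in AA vs. M and 19.8% in AA vs. C, and the groups did not overlap for 4.72%, 13.2% and 24.0%. The count of 1 of 8 (12.5%) in AA vs. C is thus below the share of all genes. At an unadjusted p under 0.05, the members numbered 0 in M vs. C (16.5% of all genes), 1 in AA vs. M (32.1%) and 3 in AA vs. C (46.8%), each below the share of all genes. The fitted log2 fold change was above 0 for 7 of 8 members in M vs. C, where 32.1% of all genes were, for 3 of 8 in AA vs. M (62.3%) and for 4 of 8 in AA vs. C (56.3%). Their median log2 fold changes were 0.29, −0.07 and 0.19, beside −0.12, 0.17 and 0.09 over all genes tested. The 3 comparisons share libraries pairwise, so that their results are not independent of one another. On TPM the members' M vs. C values were all below 0, and the median over all genes was −0.58 in place of −0.12.

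**Figure D1:**
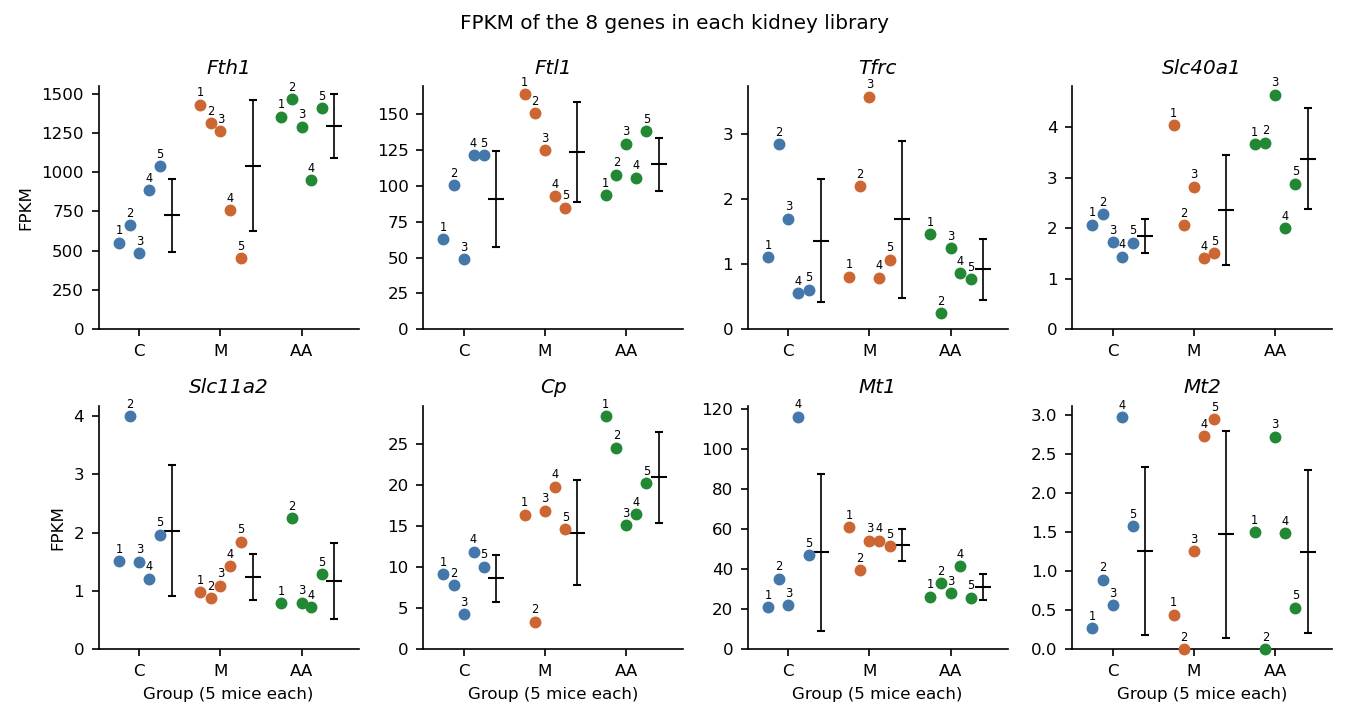
FPKM (vertical axes, each from 0) of the 8 genes in the 15 kidney libraries, by group, with the mouse number beside each point and the mean and SD of 5 mice as a bar to the right of each group. The AA points of Cp all lie above its C points, and the M points of Fth1 part into mice 1 to 3 at 1259 to 1429 and mice 4 and 5 at 759 and 452.

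Fth1 (ENSMUSG00000024661, chromosome 19, 9980598 to 9985098, plus strand), the heavy ferritin chain that oxidizes iron as it is stored, was by far the most abundant of the 8 per length, with a median of 1038 FPKM over the 15 libraries. In C it was 551, 660.3, 485, 886 and 1038 FPKM in mice 1 to 5. In M it was 1429, 1309.5, 1259, 759 and 452 FPKM, and in AA 1353, 1463, 1289.9, 947 and 1408 FPKM. Of the AA mice, 4 of 5 lay above every C mouse and AA mouse 4 lay inside the C range, while M spanned both. The means were 724 ± 232 in C, 1042 ± 417 in M and 1292 ± 203 in AA (SD, n = 5). The AA vs. C log2 fold change was 0.88 (SE 0.27, limma adjusted p = 0.026), which passes the adjusted p but not the fold threshold, and without C mouse 5 it was 1.02 (adjusted p = 0.020), past both. The M vs. C value was 0.46 (SE 0.41, adjusted p = 0.59) and the AA vs. M value 0.41 (SE 0.38, adjusted p = 0.48), both within the spread between mice.

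The M mice decided the direction of Fth1 in both comparisons that use them. Against C, M mice 1 to 3 alone gave 0.94 (adjusted p = 0.046 by limma) and M mice 4 and 5 alone −0.25 (adjusted p = 0.90). Against AA, the same subsets gave AA vs. M values of −0.06 (adjusted p = 0.89) and 1.12 (adjusted p = 0.085). Fth1 rose and fell with the mitochondrial share of the library, with a Spearman's rho of 0.80 over the 15 libraries, which share depth and scaling with both measures. The genes most like it among 996 well-measured genes were mt-Nd4 and mt-Nd1, subunits of respiratory complex I encoded in the mitochondrial genome, at a rho of 0.90 each. Rescaled to TPM, Fth1 was lower rather than higher in AA than in C (log2 fold change −0.23, adjusted p = 0.46). Counted only among fragments outside the mitochondrial genome, Fth1 held 0.730 to 1.355% in C, 0.685 to 2.30% in M and 1.58 to 2.12% in AA, and on TPM without mitochondrial genes the AA vs. C value was 0.78 (adjusted p = 0.061).

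**Figure D2:**
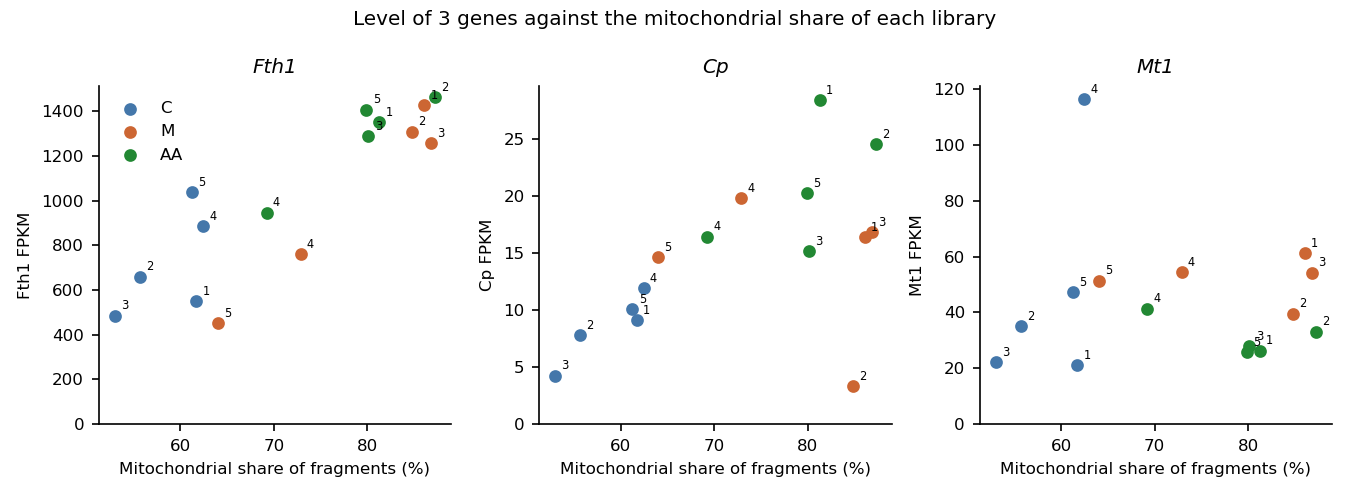
FPKM of Fth1, Cp and Mt1 (vertical axes) against the percentage of each library's fragments that lie on mitochondrial genes (horizontal axes), 15 libraries coloured by group and numbered by mouse. Fth1 is at 452 to 1038 FPKM in the libraries at or below 72.9% and at 1259 to 1463 FPKM in those at or above 79.9%, while Mt1 shows no such split.

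Ftl1 (ENSMUSG00000050708, chromosome 7, 45457944 to 45459884, minus strand), the light chain that favours the mineral core, had a median of 108 FPKM. Its values were 62.7, 100.5, 49.1, 121 and 122 FPKM in C, 164, 151, 125, 92.8 and 84.8 in M, and 93.8, 108, 129.7, 106 and 138 in AA. The 3 groups overlapped throughout, and M again had mice 1 to 3 above mice 4 and 5. The log2 fold changes were 0.48 in M vs. C (SE 0.35, adjusted p = 0.52), −0.07 in AA vs. M (SE 0.31, adjusted p = 0.91) and 0.41 in AA vs. C (SE 0.29, adjusted p = 0.28). The 95% intervals reached from −0.29 to 1.24, from −0.74 to 0.61 and from −0.22 to 1.04, so that values past 1 lie inside the first and the last. Ftl1 values are uncertain in a further way: 85.4% of the 31-base words of its transcript also occur in other genes, ferritin light chain copies among them, and 464 of its 1340 exon bases lie under other annotated genes. Its closest copy in the table, Ftl1-ps1, was at 0.738 to 5.99 FPKM. For Fth1 the share of such words was 7.92%.

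The ratio of the chains within a library does not depend on how the library was scaled. It may still depend on how fragments shared with other genes were counted. Of the 31-base words, 85.4% of those of Ftl1 and 7.92% of those of Fth1 also occur in other genes. The part of this sharing in the ratio was not tested. Fth1 exceeded Ftl1 per length by 6.57 to 9.89 times in C, 5.33 to 10.1 times in M and 8.95 to 14.4 times in AA, with medians of 8.53, 8.67 and 10.2. AA mice 1 and 2, at 14.4 and 13.6, stood above all other libraries, and the other AA mice lay among or just above the highest C and M values. The ratios were not tested.

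Tfrc (ENSMUSG00000022797, chromosome 16, 32608920 to 32632794, plus strand), which brings transferrin into the cell, was low, with a median of 1.07 FPKM and 14 to 706 fragments per library. It was at 1.11, 2.84, 1.70, 0.554 and 0.609 FPKM in C, 0.808, 2.20, 3.57, 0.794 and 1.07 in M, and 1.46, 0.251, 1.25, 0.864 and 0.773 in AA. The groups overlapped in all 3 pairs, and the 4 highest values of the 15 were in C mice 2 and 3 and M mice 2 and 3. The log2 fold changes were 0.17 in M vs. C, −0.42 in AA vs. M and −0.25 in AA vs. C (SE 0.36, 0.34 and 0.28), with adjusted p of 0.83, 0.42 and 0.51.

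Slc11a2 (ENSMUSG00000023030, chromosome 15, 100387898 to 100425072, minus strand), the transporter of divalent iron, was at 1.5, 4.00, 1.5, 1.21 and 1.96 FPKM in C. It was at 0.976, 0.874, 1.09, 1.43 and 1.85 FPKM in M and at 0.786, 2.25, 0.797, 0.719 and 1.29 in AA. The C value of mouse 2 was the highest of all 15, and 3 of 5 AA mice lay below every C mouse. None of the log2 fold changes passed: −0.39 in M vs. C (SE 0.29, adjusted p = 0.53), −0.08 in AA vs. M (SE 0.29, adjusted p = 0.89) and −0.46 in AA vs. C (SE 0.27, adjusted p = 0.19). On TPM the AA vs. C value was −1.35 (limma adjusted p = 0.0049) and passed both thresholds. On that scale 31% of all genes were called, 12.7% of those higher in AA, and the median over all genes was −0.39. On TPM without mitochondrial genes the Slc11a2 value was −0.84 (adjusted p = 0.10). Of its exon bases, 402 (6.33%) lie opposite Gm5475, which was at 0.313 to 1.28 FPKM in C, 0 to 0.527 in M and 1.75 to 4.45 in AA, and the part of this overlap in the Slc11a2 values was not tested. The gene's value sums its transcripts, so forms with and without the stem-loop printed above cannot be told apart.

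Cp (ENSMUSG00000003617, chromosome 3, 19957054 to 20009145, plus strand), the copper ferroxidase ceruloplasmin, gave the clearest difference. It was at 9.12, 7.82, 4.25, 11.9 and 10.1 FPKM in C, 16.4, 3.33, 16.9, 19.8 and 14.6 in M, and 28.4, 24.6, 15.1, 16.4 and 20.2 in AA. All 5 AA mice lay above all 5 C mice, and 4 of 5 M mice did too, with M mouse 2 below every C mouse. The means were 8.63 ± 2.86 in C, 14.2 ± 6.35 in M and 20.9 ± 5.55 in AA (SD, n = 5). Cp was higher in AA than in C by 1.21 on the log2 scale (SE 0.28, limma adjusted p = 0.0062). The M vs. C value of 0.54 (SE 0.43, adjusted p = 0.55) and the AA vs. M value of 0.67 (SE 0.42, adjusted p = 0.30) did not pass.

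The call of Cp held without each library in turn, with log2 fold changes of 1.01 to 1.33 and adjusted p of 0.0062 to 0.015, and on TPM without mitochondrial genes at 1.21 (adjusted p = 0.0057). It was lost on TPM with them, at 0.20 (adjusted p = 0.63). Without M mouse 2 the M vs. C value was 0.95 (adjusted p = 0.22), the largest of the values with 1 library left out. As a share of fragments outside the mitochondrial genome, Cp was at 0.0199 to 0.0464% in C and 0.0663 to 0.1175% in AA. Its level had a Spearman's rho of 0.61 with the mitochondrial share of the library. The genes most like Cp over the 15 libraries were Fbln1 and Bgn, which encode the matrix proteins fibulin and biglycan, at a rho of 0.94 and 0.89. The 7 fibroblast markers had a summed level above every C library in every AA library, and their part in the Cp difference was not tested. Hepatocyte markers, which would accompany liver ceruloplasmin, were summed to 9.12 to 21.1 FPKM in C and 7.98 to 13.2 in AA, and mean Alb was 0.467 FPKM in C and 0.912 in AA. The part of such RNA in the Cp difference was not tested. Cp shared none of its 31-base words with another gene, and 1.13% of its exon bases lie opposite Hps3.

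**Figure D3:**
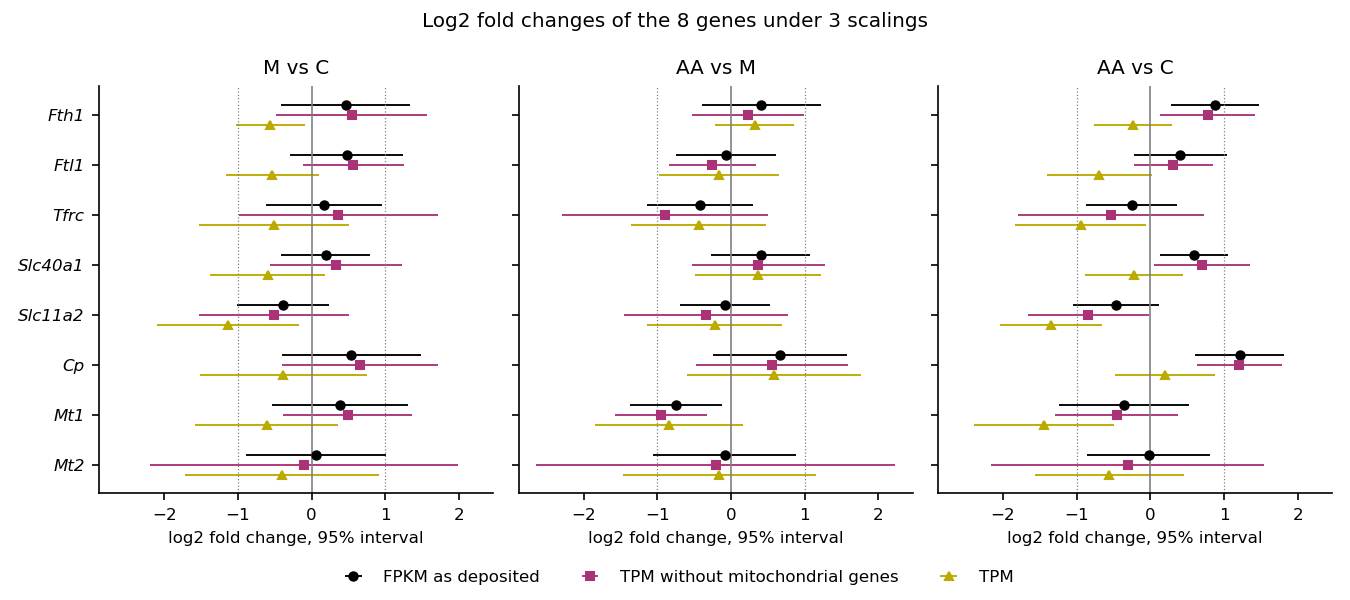
Log2 fold changes (horizontal axes) with 95% intervals for the 8 genes in the 3 comparisons, on FPKM as deposited, on TPM without mitochondrial genes and on TPM, with dotted lines at −1 and 1. Cp in AA vs. C is at 1.21 on FPKM and on TPM without mitochondrial genes and at 0.20 on TPM.

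Slc40a1 (ENSMUSG00000025993, chromosome 1, 45908068 to 45926523, minus strand), the iron exporter ferroportin, was at 2.07, 2.28, 1.73, 1.44 and 1.72 FPKM in C. It was at 4.04, 2.06, 2.82, 1.41 and 1.5 FPKM in M and at 3.67, 3.70, 4.65, 2.00 and 2.88 in AA. In AA, 4 of 5 mice lay above the whole C group, and AA mouse 4 lay inside it. The AA vs. C log2 fold change was 0.60 (SE 0.21, limma adjusted p = 0.046), again past the adjusted p and short of the fold threshold. The M vs. C value was 0.19 (SE 0.28, adjusted p = 0.74) and the AA vs. M value 0.40 (SE 0.31, adjusted p = 0.40). The AA vs. C value was −0.22 on TPM (adjusted p = 0.58) and 0.70 on TPM without mitochondrial genes (adjusted p = 0.086). AA mouse 4, the lowest AA mouse for both Fth1 and Slc40a1, was also the AA library with the smallest mitochondrial share, and over the 15 libraries Slc40a1 had a rho of 0.60 with that share. The ratio of Slc40a1 to Tfrc messenger RNA ranged from 0.804 to 2.82 in C, 0.790 to 5.00 in M and 2.31 to 14.7 in AA. Its medians were 1.87, 1.41 and 3.72. The highest ratio, in AA mouse 2, rests on 14 fragments of Tfrc. The summed messenger RNA of both ferritin chains over that of Tfrc had medians of 555 in C, 665 in M and 1219 in AA. The ranges of 268 to 1905, 387 to 1971 and 991 to 6259 overlap. Neither iron nor the proteins of these genes were measured here, so the ratios do not give iron movement or storage.

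**Figure D4:**
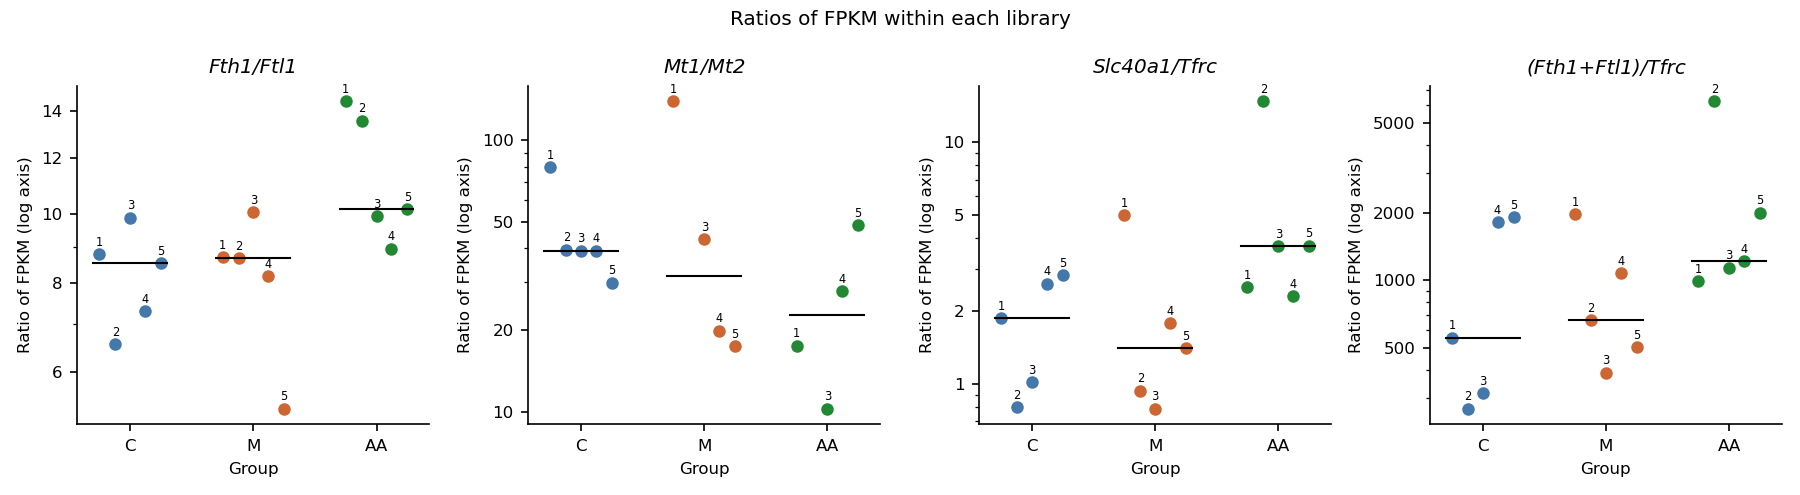
Ratios of FPKM within each library on log axes, by group, with the mouse number beside each point and the group median as a line, libraries with Mt2 at 0 left out. The Fth1 to Ftl1 ratio lies between 5.33 and 14.4 in all 15 libraries, and the Slc40a1 to Tfrc ratio has its highest median, 3.72, in AA.

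Mt1 (ENSMUSG00000031765, chromosome 8, 94179082 to 94180327, plus strand), the zinc and copper binding metallothionein, was at 21.0, 35.1, 22.1, 116 and 47.1 FPKM in C. It was at 61.1, 39.6, 54.3, 54.3 and 51.4 FPKM in M and at 26.3, 33.1, 27.9, 41.3 and 25.7 in AA. M mice were close together at 52.1 ± 7.89 (SD, n = 5), AA mice at 30.9 ± 6.53, and C mice spread widely around 48.3 ± 39.5, with mouse 4 far above the others. In AA vs. M the groups touched at 1 point, AA mouse 4 at 41.3 against M mouse 2 at 39.6. The AA vs. M log2 fold change was −0.75 (SE 0.29, unadjusted p = 0.023 and adjusted p = 0.093 by limma) and did not pass. It was −0.78 against M mice 4 and 5 alone (adjusted p = 0.14) and −0.72 against M mice 1 to 3 alone (adjusted p = 0.072). On TPM without mitochondrial genes it was −0.95 (adjusted p = 0.046), and centred on the library median it was −1.26 (adjusted p = 0.049), past both thresholds. The centred fit called 14.2% of all genes, 43.1% of those higher in AA, and the median over all genes was −0.35. In M vs. C Mt1 gave 0.39 (SE 0.43, adjusted p = 0.66) and in AA vs. C −0.35 (SE 0.41, adjusted p = 0.51), and the latter was 0.03 without C mouse 4 and −1.44 on TPM (adjusted p = 0.021), past both thresholds. That TPM fit called 31% of all genes, 12.7% of those higher in AA. The macrophage markers, also lower in AA than in most M libraries, overlapped between the groups at 162 to 471 and 114 to 167 FPKM, and their part in the Mt1 values was not tested.

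Mt2 (ENSMUSG00000031762, chromosome 8, 94172664 to 94173568, plus strand), its neighbour and close relative, was at 0.265, 0.889, 0.563, 2.96 and 1.58 FPKM in C, 0.440, 0, 1.25, 2.73 and 2.94 in M, and 1.5, 0, 2.72, 1.49 and 0.528 in AA. The groups overlapped throughout, on 59 fragments or fewer per library, and C mouse 4 was the highest C mouse, as it was for Mt1. The log2 fold changes were 0.06 in M vs. C, −0.09 in AA vs. M and −0.02 in AA vs. C (SE 0.44, 0.45 and 0.38), with intervals that reach beyond −0.8 and 0.8 in each. Mt1 exceeded Mt2 by 10.3 to 139 times in the 13 libraries in which Mt2 was above 0. In the annotation, 432 of the 588 exon bases of Mt2 lie opposite Gm45774, an antisense gene listed at 0 in 11 libraries and at no more than 0.0673 FPKM in the others. The library kit is not described as keeping strand, and whether fragments that lie on 2 genes were counted is not given in the sources used here, so the part of this overlap in the low Mt2 values was not tested. Of the other metallothioneins, Mt3 was at 0.0934 to 1.46 FPKM in C and at 0 in all AA libraries, and Mt4 was at 0 in all 15.

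Beyond the 8, a list of 67 genes of iron uptake, export and hepcidin, storage and IRP control, heme handling, iron-sulfur clusters, zinc and copper was described in the same fits. In M vs. C, 0 of the 60 tested passed both thresholds by limma, and 13 had an unadjusted p under 0.05, where 16.5% of all genes did. Without M mouse 5, 3 passed (Slc25a28, Slc39a5 and Ccs, all lower in M), in a fit that called 4.88% of all genes, 775 of the 954 lower in M. In AA vs. M, 3 of 58 passed (5.17%), all higher in AA, as were 91.6% of the calls over all genes. In AA vs. C, 9 of 61 passed (14.8%), 3 higher and 6 lower, where 51.6% of the calls over all genes were higher. The shares called lie below those of all genes tested, while 13 of 60 at an unadjusted limma p under 0.05 in M vs. C lies above the 16.5%. The median log2 fold changes of the list were −0.05, −0.04 and 0.01. Hamp, Hamp2 and Tmprss6, which belong mainly to the liver, had too few values above 0 for a test in any comparison. As a check on blood, the red blood cell markers were summed to 30.4 to 212 FPKM in C, 13.3 to 31.2 in M and 7.51 to 41.0 in AA, ranges that overlap.

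The largest falls of the list in AA vs. C were in Slc25a28, Ccs and Slc22a17, and each was called in all 22 alternative analyses. Slc25a28, which encodes mitoferrin-2, an importer of iron into mitochondria, was at 14.3 to 38.4 FPKM in C, 2.92 to 20.8 in M and 1.32 to 7.00 in AA. Its C and AA groups did not overlap, and the log2 fold change was −2.62 (SE 0.36, limma adjusted p = 0.00046). In M vs. C it was −1.34 (adjusted p = 0.18) and in AA vs. M −1.28 (adjusted p = 0.078), so M lay between the others without passing against either. Ccs, the chaperone that gives copper to superoxide dismutase, was at 14.5 to 63.3 FPKM in C and 3.15 to 8.05 in AA, a log2 fold change of −2.14 (SE 0.39, adjusted p = 0.0021). It ranged from 0 to 20.1 FPKM in M, and the M vs. C value of −2.20 did not pass (SE 0.70, adjusted p = 0.15). Slc22a17, a receptor for the iron carrier lipocalin 2, was at 1.31 to 9.50 FPKM in C and 0 to 0.602 in AA, with −1.66 on the log2 scale (SE 0.37, adjusted p = 0.0054). Slc39a5, a zinc importer, Isca2, an iron-sulfur assembly factor, and Slc31a2, a copper transporter, were the other 3 that fell, by 1.25, 1.09 and 1.07 on the log2 scale.

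The rises of the list in AA vs. C were in Slc39a4, Hpx and Heph. Heph, the second copper ferroxidase, was at 0.527 to 1.21 FPKM in C, 0 to 3.73 in M and 1.62 to 4.26 in AA, so that it shared with Cp a C group wholly below the AA group. Its log2 fold change was 1.03 (SE 0.25, limma adjusted p = 0.0078), and on TPM it was 0.47 (adjusted p = 0.29). Slc39a4, a zinc importer, rose by 1.06 (SE 0.31, adjusted p = 0.020) and Hpx, which carries free heme, by 1.06 (SE 0.35, adjusted p = 0.033). Of the 22 alternative analyses, Slc39a4 was called in 15, Heph in 13 and Hpx in 10. The same 2 genes and Lyrm4, a partner of the cysteine desulfurase that feeds iron-sulfur assembly, were the 3 called in AA vs. M. There Hpx was higher by 1.76 (SE 0.43, adjusted p = 0.013), with 0 in M mice 1 to 3, Lyrm4 by 1.33 (SE 0.37, adjusted p = 0.025), with 0 in M mice 1 and 2, and Slc39a4 by 1.18 (SE 0.36, adjusted p = 0.034), with 0 in M mice 2 and 3. With M mice 4 and 5 alone in the M group none of the 3 was called, and Slc25a28 and Slc22a17 were, both lower in AA. That fit called 8.62% of all genes, and 27.8% of its calls were higher in AA, against 91.6% with all 5 M mice. The direction of the list's calls in AA vs. C moved with the scaling. Of these calls, 3 of 9 were higher on FPKM and 4 of 14 on TPM without mitochondrial genes, where 51.6% and 49.8% of the calls over all genes were. On TPM 0 of 18 were higher (12.7% over all genes), after centring on the library median 0 of 8 (40.1%) and after quantile normalization 0 of 6 (47.3%).

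**Figure D5:**
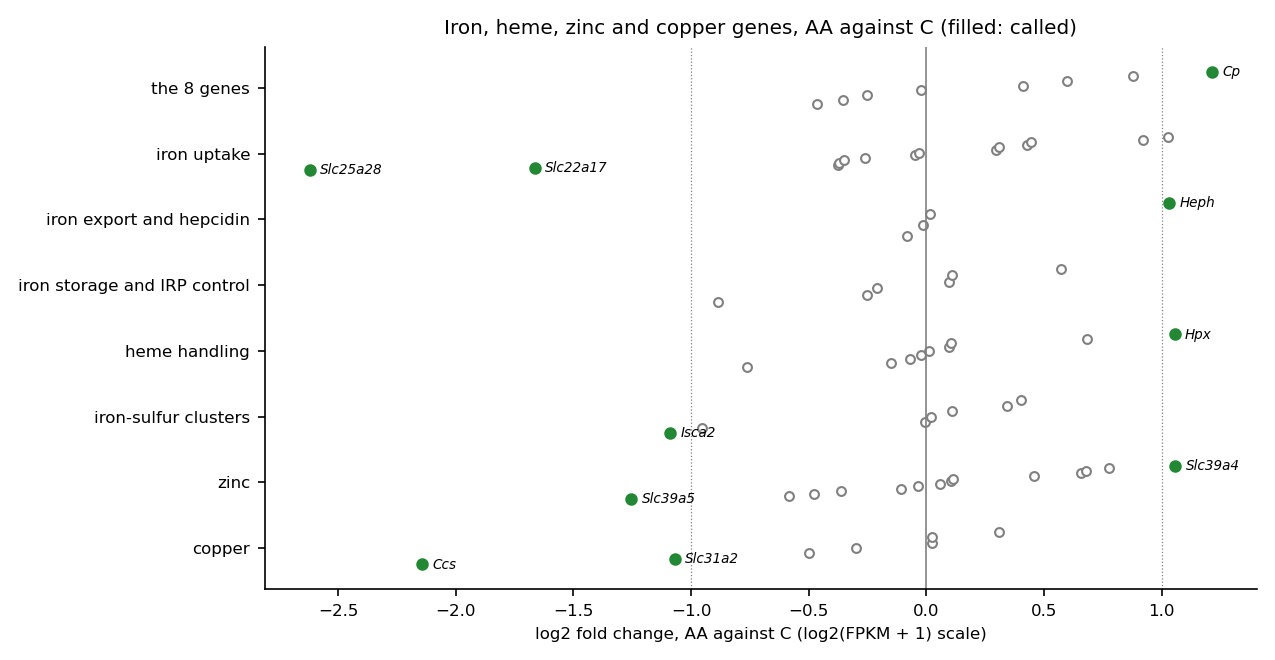
Log2 fold change in AA vs. C (horizontal axis, log2(FPKM + 1) scale) of the 8 genes and of the tested genes of the other metal lists, 1 row of points per list, filled and named where both thresholds were passed. Slc25a28, Ccs and Slc22a17 lie furthest to the left, and Cp is the highest of the named points on the right.

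Aco1 and Ireb2, which encode the iron regulatory proteins that bind the printed stem-loops, were looked at for that role after their values had been seen. Aco1 was at 4.74 to 10.7 FPKM in C, 2.66 to 4.88 in M and 1.44 to 4.96 in AA. Its AA vs. C log2 fold change of −0.89 (SE 0.28, limma adjusted p = 0.030) passed the adjusted p and not the fold threshold, and the M vs. C value was −0.75 (adjusted p = 0.21). Ireb2 was at 1.96 to 2.66 FPKM in C, 0.309 to 3.22 in M and 2.44 to 2.88 in AA, a difference of 0.11 in AA vs. C (SE 0.17, adjusted p = 0.64). Mtf1, the zinc sensor, was higher by 0.66 in AA than in C (SE 0.21, adjusted p = 0.026), also short of the fold threshold, with groups that did not overlap.

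The remaining members had no neighbour in pattern as close as those of Fth1 and Cp. Ftl1 was most like Gpx1, a glutathione peroxidase, and Fau, a ribosomal protein gene, at a rho of 0.88 and 0.87. Mt1 was most like Nfkbia, an inhibitor of NF-kappaB, and H2-Eb1, an MHC class II chain, at 0.84 and 0.80. Slc40a1 was most like Rtraf and Gm28439 (0.81 and 0.80), Slc11a2 like Ddrgk1 and Ewsr1 (0.80 and 0.80), Mt2 like Ndrg1 and Acta2 (0.72 and 0.69) and Tfrc like Hsp90aa1 and Eif1b (0.64 and 0.62). Among the members themselves, the closest pairs were Fth1 with Ftl1 (rho 0.75) and Fth1 with Slc40a1 (0.71), while Mt1 and Mt2 had a rho of 0.47. All are Spearman's rho over the same 15 libraries, whose scaling they share.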

How the data were processed

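RNA from 15 kidneys was analysed (5 per group; numbers name mice and do not pair them). Per the labels and the study's methods, poly-A libraries were read as paired ends, cleaned with fastp, aligned to mm10 with HISAT2 2.0.5 and counted with featureCounts 1.5.0-p3. The authors deposited FPKM, and their own test on counts was not used here. Columns of FPKM were matched to samples by library name, and 37 identifiers were not in GENCODE M21. Fragments were recovered from FPKM steps and gene lengths, with 98.1 to 99.4% of low values within 0.05 of a whole number.

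Comparisons used limma 3.58.1 in R 4.3.3 (intensity trend, Benjamini-Hochberg) on log2(FPKM + 1) of the 10 libraries compared, for genes above 0 in at least 5, so fold changes of low genes are understated. The fit was tried on simulated normal values, with both groups drawn from the means and SDs of the C libraries. It recovered most of the genes moved there. Those data lack the split among the M mice, so they do not show how the fit behaves with it. Mice, not fragments, are the replicates. Alternatives changed the pseudocount, the filter, the scaling (TPM, quantile, centring), the model and the libraries used.

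The members and lists were chosen with earlier results of these data known. Named genes are the members, up to 3 rises and 3 falls of the list per comparison, and the 2 genes most like each member (Spearman's rho, mean FPKM of at least 10). Other genes were named after their values were seen. Tools were Python 3.11.15, pandas 2.3.3, numpy 2.4.6 and matplotlib 3.10.9.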

Additional observations from a re-analysis of the deposited data

Results flagged for a closer look

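Within groups of 5, Dixon's ratio was computed for each of the 8 genes in each group (24 groups), and 2 had a library further from the others than its critical value of 0.71. Chance alone marks about 1 in 20 groups. Mt1 in C mouse 4 was at 116 FPKM, with the next C mouse at 47.1 (ratio 0.726). Without this library the AA vs. C log2 fold change of Mt1 was 0.03 in place of −0.35, and neither passed. Slc11a2 in C mouse 2 was at 4.00 FPKM, with the next C mouse at 1.96 (ratio 0.731).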

How the results depend on the processing

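Cp in AA vs. C was called in 21 of 22 alternatives, and the exception was TPM. The sign of most other member values depended on scaling or on which M mice were used, and the cause was not tested. All values here are log2 fold changes or counts of calls. On TPM, M vs. C was −0.56 for Fth1, −0.53 for Ftl1, −0.51 for Tfrc, −0.59 for Slc40a1, −0.38 for Cp, −0.61 for Mt1 and −0.40 for Mt2, and AA vs. C was −0.23 for Fth1, −0.69 for Ftl1 and −0.22 for Slc40a1. With M mice 4 and 5 alone, M vs. C was −0.25 for Fth1, −0.21 for Tfrc and −0.21 for Slc40a1, and AA vs. M was 0.36 for Ftl1. With M mice 1 to 3 alone, M vs. C was −0.48 for Mt2, and AA vs. M was −0.058 for Fth1, 0.088 for Slc11a2 and 0.46 for Mt2. On TPM without mitochondrial genes, M vs. C was −0.10 for Mt2. That scale was combined with the M subsets after the data were seen. With M mice 4 and 5 it gave M vs. C values of −0.043 for Fth1, −0.10 for Tfrc, −0.12 for Slc40a1 and 0.014 for Slc11a2, and AA vs. M values of 0.058 for Ftl1 and −0.045 for Cp. With M mice 1 to 3 it gave −1.31 for Mt2 in M vs. C, and −0.16 for Fth1, 0.011 for Slc11a2 and 1.00 for Mt2 in AA vs. M. Pseudocounts of 0.1 and 0.01 gave −0.19 and −0.77 for Mt2 in M vs. C. In AA vs. M, centring on the library median gave −0.10 for Fth1 and −0.11 for Slc40a1, quantile normalization 0.060 for Ftl1 and library weights 0.22 for Ftl1.

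Leaving out 1 library at a time, M vs. C ranged from −0.049 to 0.37 for Tfrc (below 0 without M mouse 3) and −0.15 to 0.34 for Mt2. AA vs. M ranged from −0.19 to 0.045 for Ftl1, −0.23 to 0.014 for Slc11a2 (above 0 without M mouse 5) and −0.36 to 0.17 for Mt2. AA vs. C ranged from −0.57 to 0.033 for Mt1 (above 0 without C mouse 4) and −0.24 to 0.24 for Mt2. None of these values was called with or without a library.

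Percentages in brackets below are the shares of all genes called in the same fit. Members called in AA vs. M numbered 1 after centring (Mt1, 14.2%) in place of 0 (12.8%). In AA vs. C they numbered 2 on TPM (Slc11a2 and Mt1, 31%) in place of 1 (19.8%). Without 1 library they numbered 1 to 2 (16.4 to 23.1%), with Fth1 added without C mouse 5 (18.6%). The metal list in M vs. C had 0 calls among the 60 tested (1.38%), but 5 on TPM (7.61%) and 1 with all 15 libraries in one fit (3.02%). It had 12 with M mice 1 to 3 (19.9%) and 16 with these on TPM without mitochondrial genes (36.8%). Without 1 library it had 0 to 3 (0.02 to 4.88%), the 3 being without M mouse 5 (4.88%). In AA vs. M it had 3 calls among the 58 tested (12.8%), but 1 with a pseudocount of 0.01 (13.1%) and 1 with genes above 0 in any library (6.27%). It had 0 on TPM (2.13%), 1 on TPM without mitochondrial genes (14.5%) and 6 after quantile normalization (11.5%). After centring it had 6 (14.2%), and with M mice 1 to 3 it had 8 (22.3%). On TPM without mitochondrial genes it had 1 with M mice 4 and 5 (5.56%) and 8 with M mice 1 to 3 (34.3%). Without 1 library it had 1 to 5 (9.21 to 15.8%), with 1 without M mouse 2, AA mouse 1 or AA mouse 2 and 5 without M mouse 5 (15.8%). In AA vs. C it had 9 calls among the 61 tested (19.8%), but 15 with either smaller pseudocount (34.1 and 29.5%). It had 18 on TPM (31%) and 14 on TPM without mitochondrial genes (32.9%). Without 1 library it had 6 to 10 (16.4 to 23.1%), with 6 without C mouse 2 (16.4%). The calls over all genes moved too: in M vs. C from 291 to 1609 on TPM, 710 with all 15 libraries, 3404 with M mice 1 to 3 and 6291 with these on TPM without mitochondrial genes. In AA vs. M they moved from 2533 to 422 on TPM and 3744 with M mice 1 to 3, and in AA vs. C from 4346 to 7474 and 6452 with the smaller pseudocounts, 6785 on TPM and 7190 on TPM without mitochondrial genes.

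Same-numbered mice did not deviate together (correlations of −0.13 to 0.22), so the numbers are only names. With the replicate block the members called were 0 in M vs. C, 0 in AA vs. M and 1 in AA vs. C, and the metal list had 0, 1 and 10 calls. Of all genes, 0.719%, 11.2% and 19.8% were called in these fits. Over all genes the replicate block gave 152 calls in M vs. C in place of 291.

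The thinnest counts were those of Mt2 (0 to 59 fragments) and Tfrc (from 14). Fragments give no interval here, because a factor of 2 in their number is open.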
